A study of Homo sapiens with 12 samples.

Results

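Hke3 and Hkh-2 are clonal lines that were both derived from HCT116, a human colorectal cancer cell line, by homologous recombination at the same oncogenic RAS allele. The 3 arrays labelled Hke3 were compared with the 3 arrays labelled Hkh-2, which are 6 of the 12 arrays analysed here, and the genes were chosen by level alone, as those whose mean reached 6 on the log2 scale in either line. This rule kept 12598 of 19775 genes. The sources differ on the edit, which the methods call a deletion of the mutant allele and the supplement an exchange for the wild-type one. Both lines were grown in basal condition with no treatment. The other 6 arrays hold HCT116 control cells collected on day 3, 3 with vehicle and 3 with 25 ng/ml doxycycline, and entered the fit as groups of their own. The methods describe cells given doxycycline or vehicle as carrying inducible short hairpin RNA vectors, and name a hairpin control. Parental HCT116 was grown in basal condition. The HCT116 level given below is thus that of these control cells, and may not be that of the parental line. Each recombined line is 1 clone, so a difference between them is a difference between these clones and cannot be assigned to the allele, which they are said to share. The labels do not say whether the arrays of a line came from separate cultures, so p-values rest on the spread among arrays, which may be only technical.

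RAS proteins pass growth factor signals to the RAF, MEK and ERK kinases, and ERK switches on immediate early genes and genes of feedback inhibitors. Lines made by recombination grow from single cells and are expanded separately, so they can also carry differences that arose before or during cloning. Interferons act through receptors and STAT proteins on genes whose promoters hold a response element, and many of these genes encode sensors and effectors of defence against viruses.

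RNA was measured on Affymetrix arrays. The log2 values used throughout come from robust multi-array averaging (RMA), which gives each of 54675 probe sets, the groups of short probes that report on a transcript, a level on each array. The array medians lay between 5.80 and 5.824 over the 6 arrays. Over all probe sets, a description only since probe sets are not replicates, arrays of 1 line correlated with r between 0.9931 and 0.9977, and arrays of different lines with r between 0.9831 and 0.9897. Of the 6 arrays, Hke3 replicate 3 lay farthest from its own line, with a standard deviation over genes of 0.197 around the line's mean against 0.0821 to 0.123 in the other 5 arrays. The 5' minus 3' difference of the actin control probe sets was -0.575, -0.51 and -0.229 in Hke3 and -0.324, -0.254 and -0.232 in Hkh-2, and the part of this difference in the results was not tested. Epithelial markers were high in both lines, with mean log2 values of 13.24 in Hke3 and 13.16 in Hkh-2 for EPCAM and of 14.01 and 14.54 for KRT18, but CDH17 and LGALS4 lay under 6 in both. Of 20 fibroblast, immune and endothelial markers with a probe set, 5 reached 6 in either line. These were COL1A1, COL3A1, DCN, CD3E and PECAM1, and the immune marker PTPRC lay at 3.89 in Hke3 and 3.90 in Hkh-2.

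The lines differed in a large share of genes, mostly by small amounts. Of the 12598 genes, 5122 (40.7%) passed an adjusted p of 0.05 from limma with Benjamini-Hochberg adjustment, of which 2096 (16.6%) were higher in Hke3 and 3026 (24.0%) were higher in Hkh-2. In 4820 of the 5122 genes the 3 arrays of one line did not overlap the 3 of the other. The median absolute log2 difference was 0.476 over the genes that passed and 0.212 over all genes, whose median difference, Hke3 minus Hkh-2, was -0.06. With 3 arrays a line, the smallest two-sided p of an exact permutation test is 0.1, so single genes rest on the fit across all genes. In RNA from whole cultures, fewer cells that express a gene and less RNA per cell cannot be told apart. Without Hke3 replicate 3, 6410 genes passed.

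Among large differences, more genes were higher in Hke3. The larger count towards Hkh-2 over all genes that passed depended on the normalization. With cyclic loess, another normalization, 2534 genes were higher in Hkh-2 and 2492 in Hke3. With a log2 difference past 1.5, that setting gave 84 and 151. Past a log2 difference of 1.5, the size that the study's methods give for these arrays, 142 genes (1.13% of those tested) were higher in Hke3 and 88 (0.699%) were higher in Hkh-2. Past 2 these were 65 and 47 genes, past 3 they were 21 and 12, and past 4 they were 6 and 3. Of the 230 genes past 1.5, 229 had arrays that did not overlap between the lines. In 88 of them the mean of the lower line was under 6, which was taken as near background, and such a gene is given a lower bound, its distance from 6. Among the 106 of these genes with more than 1 probe set, the probe sets of 102 (96.2%) went in 1 direction, as did those of 67.2% of all genes with several probe sets. When a mean under 6 was set to 6, 110 genes stayed past 1.5 towards Hke3 and 67 towards Hkh-2.

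**Figure D1:**
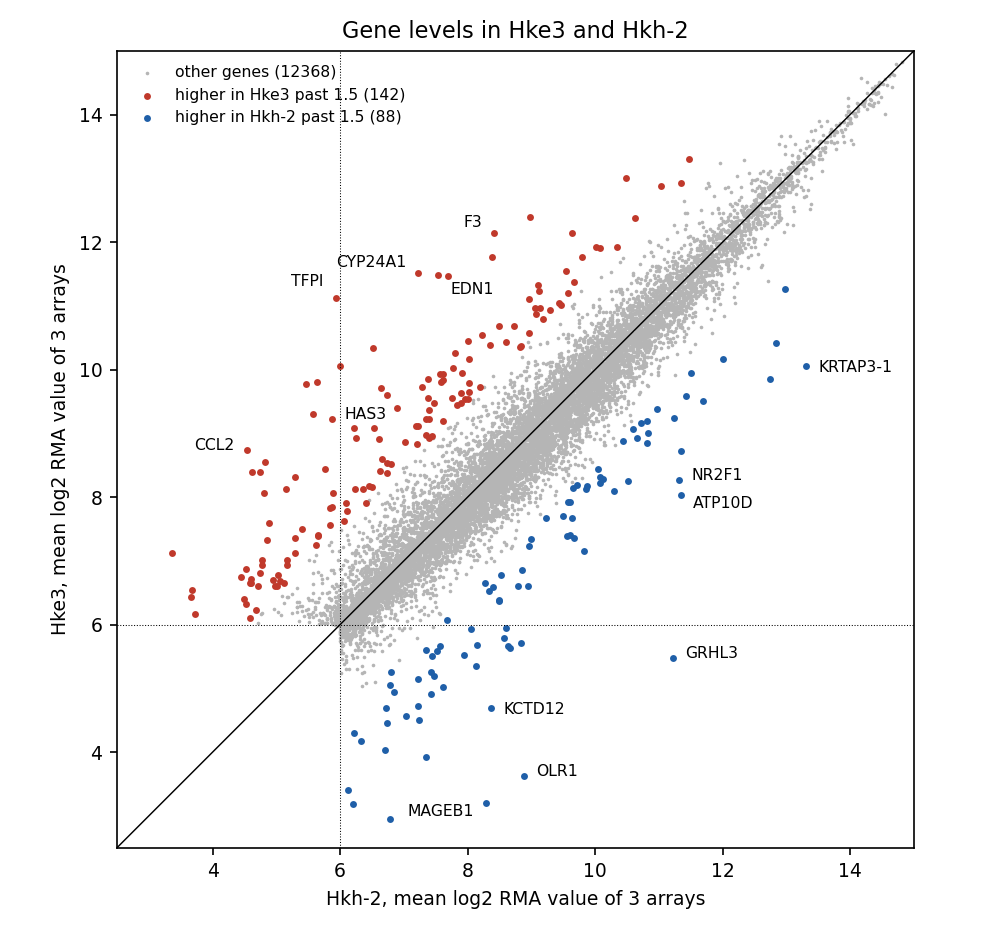
Mean log2 RMA value of each of the 12598 genes in Hkh-2 (horizontal axis) and Hke3 (vertical axis), each over 3 arrays. Red points are the 142 genes higher in Hke3 past 1.5 and blue points the 88 higher in Hkh-2, the solid line marks equal values and the dotted lines the level of 6. TFPI lies at 5.93 in Hkh-2 and 11.12 in Hke3, and GRHL3 at 11.22 and 5.48.

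The level of the vehicle-treated HCT116 arrays lay nearer to the lower line for most of the genes past 1.5. The rule did not use these arrays, but it kept genes by their level in either line. In 51 of the 142 genes and 37 of the 88 the lower line was under 6. Where HCT116 is low as well, such a gene lies nearer to that line by construction, and the counts are not split by this. Of the 142 genes higher in Hke3, 99 (69.7%) had an HCT116 mean nearer to Hkh-2 and 43 nearer to Hke3. Of the 88 genes higher in Hkh-2, 66 (75.0%) had an HCT116 mean nearer to Hke3 and 22 nearer to Hkh-2. Over all genes tested, 60.0% lay nearer to Hkh-2. The HCT116 mean lay between the lines for 80 of the 142 and 37 of the 88, and below both for 52 and 41. It lay above both for 10 genes in each set, and over all genes the shares between, below and above were 31.9%, 33.7% and 34.4%. HCT116 was collected on day 3 with vehicle and may carry a control vector, and the clones were in basal condition. Culture, vector and line therefore cannot be told apart in these positions.

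Genes of coagulation and plasminogen activation were mostly higher in Hke3. Of 15 members measured, 10 (66.7%) were higher in Hke3 and 3 in Hkh-2, beside 16.6% and 24.0% of all genes. The median log2 difference was 0.64 against -0.06 over all genes. TFPI, which encodes the inhibitor that blocks tissue factor at the start of coagulation, had log2 values of 11.13, 11.31 and 10.92 in Hke3 and of 5.87, 5.94 and 5.99 in Hkh-2. All Hkh-2 arrays lay just under 6, and TFPI was higher in Hke3 by 5.12 or more (adjusted p = 5.3e-10 from limma). All 4 of its probe sets differed in this direction, by 4.10 to 5.19. F3, which encodes tissue factor itself, had values of 11.98, 12.14 and 12.31 in Hke3 and of 8.27, 8.31 and 8.67 in Hkh-2, a difference of 3.73 (standard error 0.111). Thus the inhibitor and its target were both higher in the same line, although in HCT116 the inhibitor lay at 6.37, near Hkh-2, and tissue factor at 11.77, near Hke3. PLAU, which encodes the urokinase plasminogen activator, was higher in Hke3 by 1.80, and its receptor gene PLAUR by 0.48. SERPINA1, a serine protease inhibitor gene, was higher by 1.15. The thrombin receptor gene F2R was higher by 0.98, PROCR, which encodes the receptor of protein C, by 0.82 and PLAT, which encodes the tissue plasminogen activator, by 0.75; these 3 and PLAUR were named after their values were seen. F12, the gene of a contact factor, was lower in Hke3 by 0.73 (log2 difference -0.73). SERPINE2, a protease inhibitor gene, had a log2 difference of -0.62, but its 2 probe sets went in opposite directions. Thrombin's own gene F2 was low in both lines, with means of 6.18 and 6.24, and did not pass the test.

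The further genes with large differences towards Hke3 have different functions. CYP24A1, which encodes the enzyme that inactivates vitamin D, had values of 11.58, 11.60 and 11.35 in Hke3 and of 7.37, 7.11 and 7.20 in Hkh-2. EDN1, the gene of the vasoactive peptide endothelin, had 11.49, 11.42 and 11.54 in Hke3 and 7.63, 7.74 and 7.20 in Hkh-2. RGS2, which encodes a protein that switches off G protein signals, had 10.50, 10.37 and 10.15 in Hke3 and 6.52, 6.44 and 6.58 in Hkh-2. The lines were thus separated by more than 3 log2 units in each of these genes, by 4.28, 3.96 and 3.82 between the means. In HCT116, RGS2 lay at 10.26, at the level of Hke3, whereas EDN1 lay at 5.66, below both lines. The gap junction gene GJC1 was higher in Hke3 by 3.77, the growth factor gene PDGFC by 3.42 and MTUS1 by 3.38. The 4 probe sets of MTUS1 differed by 0.76 to 3.61. HKDC1, which encodes a member of the hexokinase family, was higher by at least 3.78 and HAS3, which encodes a hyaluronan synthase, by at least 3.23, because their Hkh-2 means lay under 6. However, 1 of the 2 probe sets of HAS3 differed by only 0.23. DENND2A, ALPK2, ATXN1 and TSPAN5 completed the 15 genes with the largest differences, apart from the integrin gene described below. In Hkh-2, DENND2A, ALPK2 and ATXN1 lay near background and the 3 arrays of TSPAN5 spread from 5.77 to 6.62, all under its Hke3 values of 9.01 to 9.20.

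Among the genes higher in Hkh-2, 1 epithelial factor gene stood at the extreme. GRHL3, which encodes a grainyhead-like transcription factor of surface epithelia, had values of 5.43, 5.41 and 5.60 in Hke3 and of 11.40, 11.17 and 11.09 in Hkh-2. It was higher in Hkh-2 by at least 5.22 (adjusted p = 3.54e-12 from limma), and its HCT116 mean of 5.63 was also near background. ATP10D, which encodes a membrane transporter of the flippase family, had 8.25, 8.18 and 7.65 in Hke3 and 11.28, 11.35 and 11.39 in Hkh-2. NR2F1, the gene of an orphan nuclear receptor, had 8.24, 8.30 and 8.28 in Hke3 and 11.34, 11.47 and 11.13 in Hkh-2. The Hkh-2 arrays lay above those of Hke3 by 3.31 and 3.04 between the means in these genes. OLR1, which encodes a receptor for oxidised lipoprotein, was near background on every Hke3 array, at 3.48 to 3.88, and lay at 8.78, 8.85 and 9.0 in Hkh-2, so it was higher there by at least 2.88. CD47, which encodes the surface protein known as an inhibitory signal to macrophages, had 10.45, 10.50 and 10.32 in Hke3 and 12.83, 12.82 and 12.88 in Hkh-2, and all 5 of its probe sets went this way. The RNA-binding protein gene ZFP36L2 differed by -2.89 (Hke3 minus Hkh-2) and the chromatin factor gene ARID5B by -2.63. The 4 probe sets of ZFP36L2 ran from -3.66 to 0.02, with 3 in this direction. The kinase subunit gene PIK3R3, the imprinted gene DIRAS3, which encodes a small GTPase, the apolipoprotein family gene APOL6 and the calcium sensor gene VSNL1 were near background in Hke3 and higher in Hkh-2 by at least 2.83, 2.66, 2.57 and 2.63. KRTAP3-1, FGD3, PRR15L and KCTD12 were the others of these 15 genes, with KRTAP3-1, a hair keratin-associated gene, between 9.87 and 10.36 in Hke3 and between 13.24 and 13.40 in Hkh-2.

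**Figure D2:**
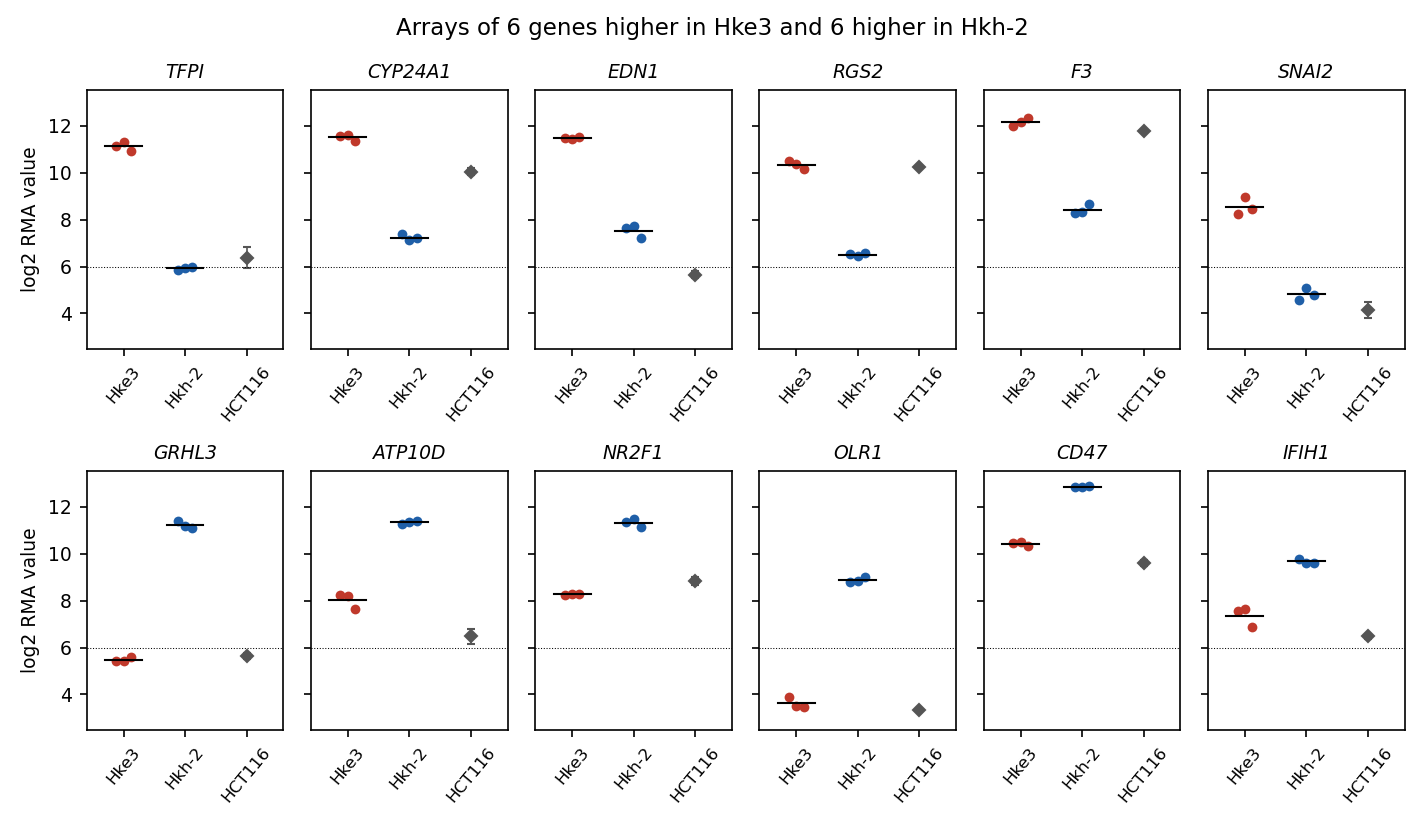
Levels on the log2 scale (vertical axis) for 6 genes higher in Hke3 (upper row) and 6 higher in Hkh-2 (lower row). Each coloured point is 1 array and each black bar the mean of 3, the grey diamond is the mean of the 3 vehicle-treated HCT116 arrays with its SD, and the dotted line marks 6. F3 lies at 11.77 in HCT116, near the Hke3 arrays, and GRHL3 at 5.63, near the Hke3 arrays as well.

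Of the 34 lists, the interferon response had the largest share of members that passed in 1 direction. Of 37 members measured, 30 (81.1%) were higher in Hkh-2 and 0 were higher in Hke3, beside 24.0% and 16.6% of all genes, and the median log2 difference was -0.70. Of the 37 differences 35 were below 0, and no further member passed in either direction at an unadjusted p of 0.05. Without 1 array at a time, 26 to 30 members were higher in Hkh-2, and without Hke3 replicate 3 it was 28, with PLSCR1 then passing in the other direction (0.30, adjusted p = 0.0181 from limma). Over the 47 genes of the list with a probe set, the median level was 7.46, 7.41 and 7.45 on the Hke3 arrays and 8.64, 8.41 and 8.31 on the Hkh-2 arrays. IFIH1, which encodes a sensor of viral double-stranded RNA, had values of 7.54, 7.66 and 6.89 in Hke3 and of 9.79, 9.62 and 9.60 in Hkh-2. OASL, of the oligoadenylate synthetase family, had 6.61, 6.5 and 6.65 in Hke3 and 8.29, 8.55 and 8.37 in Hkh-2. No array of Hke3 reached the Hkh-2 arrays in either gene, and the differences were -2.31 (standard error 0.164) and -1.81 (standard error 0.0847). IFI6, which encodes a small mitochondrial and membrane protein, differed by -1.55 and UBE2L6, the gene of the enzyme that conjugates ISG15, by -1.35. The IFI6 arrays of Hkh-2 spread more widely than those of Hke3, from 10.03 to 10.91 against 8.78 to 8.98. The 5 members with a mean of 6 or more in Hkh-2 alone were GBP1, OAS1, TRIM22, IFI44 and MX2, so their differences are bounds, of at least 0.70 for GBP1 and at least 1.34 for OAS1. The 7 members that did not pass were BST2, DTX3L, IFI35, IFIT1, IFIT2, IFIT5 and PLSCR1. IFIT1, which encodes a protein that binds viral RNA, had means of 9.85 in Hke3 and 10.04 in Hkh-2, with arrays that overlapped, and an HCT116 mean of 7.19.

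**Figure D3:**
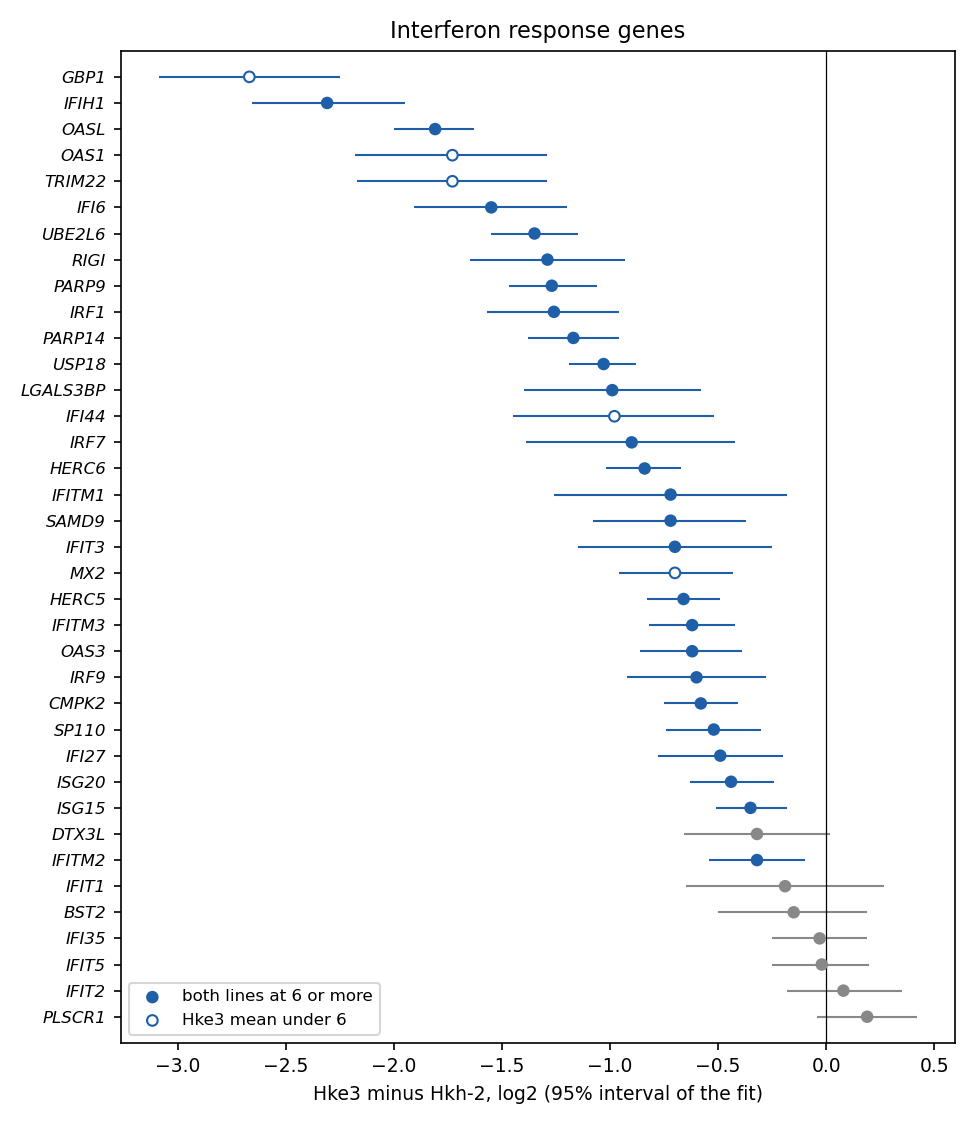
Log2 difference, Hke3 minus Hkh-2 (horizontal axis), of the 37 interferon response genes measured, with the 95% interval of the limma fit. Blue marks the 30 genes that passed an adjusted p of 0.05, grey the 7 that did not, and open circles genes whose Hke3 mean lay under 6. The differences run from -2.67 for GBP1 to 0.19 for PLSCR1.

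Interferon response elements were looked for in the promoters of these genes, because their members moved together. The motif was GAAANNGAAA on either strand, in windows of 300 bases that span each gene's start, taken from RefSeq on GRCh38.p14. It was present in 20 of the 30 list members with a promoter sequence (66.7%). It was found in 258 of the 10171 tested genes with one (2.54%) and in 3.65% of all 27305 promoters. The list is made of interferon response genes, so this share describes the list and not the difference between the lines. Among the members higher in Hkh-2 it was found in 15 of 24 and among those that did not pass in 5 of 6. Outside the list it was found in 1 of 56 promoters of genes past 1.5 higher in Hkh-2 (1.79%) and in 3 of 105 higher in Hke3 (2.86%). The 170 bases before the gene start are printed for the 3 members with the largest differences among those that reached 6 in both lines and have a promoter sequence, and for IFIT1, which did not pass, 5′ to 3′ on the strand of the gene, with the motif in capitals and overlapping matches run together.
IFIH1 (chr2:162318685-162318854, minus strand): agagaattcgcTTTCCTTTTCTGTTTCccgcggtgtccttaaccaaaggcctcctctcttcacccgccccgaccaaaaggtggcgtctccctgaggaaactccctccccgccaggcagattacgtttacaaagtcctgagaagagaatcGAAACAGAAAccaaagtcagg
IFI6 (chr1:27672193-27672362, minus strand): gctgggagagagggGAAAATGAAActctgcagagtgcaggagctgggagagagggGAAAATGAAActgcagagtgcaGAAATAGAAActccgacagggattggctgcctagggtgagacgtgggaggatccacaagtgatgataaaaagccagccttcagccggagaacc
UBE2L6 (chr11:57567936-57568105, minus strand): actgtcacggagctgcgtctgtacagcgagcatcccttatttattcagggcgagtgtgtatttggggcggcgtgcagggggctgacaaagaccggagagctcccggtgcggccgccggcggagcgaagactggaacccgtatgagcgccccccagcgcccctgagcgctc
IFIT1 (chr10:89392453-89392622, plus strand): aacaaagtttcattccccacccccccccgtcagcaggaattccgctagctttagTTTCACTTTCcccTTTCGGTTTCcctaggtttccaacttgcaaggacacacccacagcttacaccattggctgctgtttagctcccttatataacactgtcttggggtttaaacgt
IFIH1 and IFI6 each held 3 matches, UBE2L6 held none in its window although it was higher in Hkh-2, and IFIT1 held 2. A match is a description of the sequence and not a measured binding site.

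Antigen presentation, which includes interferon-induced genes, went the same way with smaller differences. Of 17 members, 10 (58.8%) were higher in Hkh-2 and 0 in Hke3, beside 24.0% and 16.6% of all genes. The median was -0.45, and 1 more passed an unadjusted p of 0.05 towards Hkh-2. Without Hke3 replicate 3, the aminopeptidase gene ERAP1 was higher in Hke3 (0.91, adjusted p = 0.0035 from limma). PSMB9, which encodes a subunit of the immunoproteasome, had values of 8.93, 8.93 and 8.84 in Hke3 and of 9.84, 9.78 and 9.74 in Hkh-2. The class I heavy chain gene HLA-C differed by -0.85 and HLA-B by -0.80, and both share sequence with other class I genes, so the probe sets may also bind their RNA. In both genes Hke3 replicate 3 lay closest to Hkh-2, at 12.94 for HLA-C and 12.58 for HLA-B, while the other Hke3 arrays lay at 12.26 and 12.36, and at 11.92 and 11.96. B2M, which encodes the light chain, did not pass. Among chemokine and cytokine genes, 3 of 16 were higher in Hke3 and 3 in Hkh-2. CCL2, the gene of a monocyte attractant, was at 8.75, 9.06 and 8.41 in Hke3 and at 4.50, 4.54 and 4.58 in Hkh-2, where it was near background, so it was higher in Hke3 by at least 2.74. CXCL8, which encodes the neutrophil attractant interleukin-8, was higher in Hke3 by at least 1.02, whereas IL32 and CXCL16 differed by -1.96 and -0.95. IL32 lay at 5.85 in HCT116, below both lines.

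Targets and feedback inhibitors of ERK leaned to Hkh-2. Of 22 members measured, 9 (40.9%) were higher in Hkh-2 and 3 (13.6%) in Hke3, beside 24.0% and 16.6% of all genes. The median was -0.19. Without 1 array at a time 6 to 10 were higher in Hkh-2, the lowest without Hke3 replicate 2 and without Hkh-2 replicate 3. ETV4, an ETS factor gene, had values of 6.95, 6.86 and 7.18 in Hke3 and of 7.78, 7.82 and 7.98 in Hkh-2. The feedback inhibitor genes SPRY4 and SPRY2 differed by -0.82 and -0.67, and the phosphatase gene DUSP7 by -0.65. In HCT116, ETV4 lay at 8.39 and SPRY4 at 8.08, above both lines, whereas SPRY2 lay at 6.94, below both. EMP1, which encodes an epithelial membrane protein, went the other way, with Hke3 between 10.88 and 10.99 and Hkh-2 between 9.23 and 9.35, and so did the stress-response gene IER3, by 1.27. Of 8 EGF ligand and receptor genes, 2 were higher in each line, and 1 was higher in Hke3 without Hke3 replicate 1, Hkh-2 replicate 1 or Hkh-2 replicate 2. EREG, the gene of the EGF receptor ligand epiregulin, had 10.30, 10.89 and 10.45 in Hke3 and 8.16, 8.31 and 8.20 in Hkh-2, a difference of 2.32. The receptor genes ERBB2 and ERBB3 differed by -0.69 and -0.62, and EGFR and TGFA did not pass, with differences of -0.07 and 0.08.

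Immediate early genes leaned to Hkh-2, with 11 of 22 on that side and 5 (22.7%) on the side of Hke3. Over all genes these shares were 24.0% and 16.6%, so the list exceeded them on both sides. KLF4, which encodes a zinc finger factor of differentiated epithelium, had values of 8.13, 7.96 and 8.17 in Hke3 and of 10.41, 10.37 and 10.09 in Hkh-2. MYC lay at 11.31 to 11.48 in Hke3 and at 12.67 to 12.77 in Hkh-2, and at 12.64 in HCT116. JUNB, an AP-1 factor gene, differed by -1.48, and EGR3 was higher in Hkh-2 by at least 1.43. In the other direction, CCN2 and CCN1, which encode matricellular proteins, were higher in Hke3 by 1.19 and 0.43, KLF6 by 0.62 and JUN by 0.57. EGR1, a further zinc finger gene, spread from 8.67 to 10.57 in Hke3 alone and did not pass (-1.09, adjusted p = 0.0607 from limma). The median of the list was -0.47, but 0.05 without probe sets that can bind several transcripts. Of 16 genes of YAP and TEAD, 8 were higher in Hke3 and 2 in Hkh-2, beside 16.6% and 24.0% of all genes. The median was 0.22, but 5 were higher in Hke3 without Hke3 replicate 1 and 4 in Hkh-2 without Hke3 replicate 3. CRIM1 and AMOTL2 were higher in Hke3 by 1.08 and 0.63, while the factor genes TEAD3 and TEAD4 differed by -1.14 and -0.78 and YAP1 did not pass, with a difference of 0.17.

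Epithelial factor and junction genes were mostly higher in Hkh-2. Of 36 members, 19 (52.8%) were higher in Hkh-2 and 7 (19.4%) in Hke3, beside 24.0% and 16.6% of all genes. The median was -0.49. Besides GRHL3, the factor gene OVOL1 differed by -1.49, the membrane protease gene PRSS8 by -1.34 and the plakophilin gene PKP2 by -1.17. OVOL2, a paralogue of OVOL1, went the other way, with Hke3 between 7.01 and 7.11 and Hkh-2 between 6.30 and 6.35. The desmosomal cadherin genes DSC2 and DSG2 were higher in Hke3 by 0.87 and 0.62, and the claudin gene CLDN12 by 0.68. CLDN1, another claudin gene, named after its values were seen, had the list's largest difference towards Hke3. It was near background in Hkh-2, so it was higher in Hke3 by at least 0.41. E-cadherin's gene CDH1 differed by -0.34, a call lost without Hke3 replicate 1 or Hkh-2 replicate 1 (adjusted p = 0.0579 and 0.0694 from limma). Of 13 keratins, 4 were higher in each line. KRT20, a keratin of differentiated intestinal epithelium, had 6.84, 6.66 and 7.06 in Hke3 and 8.81, 8.74 and 9.03 in Hkh-2. KRT8 and KRT18 differed by -0.80 and -0.53, both read on a probe set that can bind several transcripts. The median of the keratins was -0.11, but 0.61 without such probe sets and 0.13 with the mean of probe sets. KRT15 and KRT80 were higher in Hke3 by 0.80 and 0.61.

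Of 17 mesenchymal factors and proteins, 5 (29.4%) were higher in Hke3 and 4 (23.5%) in Hkh-2, beside 16.6% and 24.0% of all genes. The median of the list was -0.01. Of its factor genes, SNAI2, ZEB1 and TWIST1 were higher in Hke3 and SNAI1 did not pass. These 3 reached 6 in Hke3 alone, so they were tested only through the line where they are high, as COL3A1 was through Hkh-2. Of the 13 members at 6 or more in both lines, 2 were higher in Hke3 and 3 in Hkh-2. SNAI2, which encodes a repressor of epithelial genes, had values of 8.25, 8.97 and 8.43 in Hke3 and of 4.59, 5.07 and 4.79 in Hkh-2, so it was higher by at least 2.55. ZEB1, which encodes another such repressor, was higher by at least 0.64 and TWIST1, a basic helix-loop-helix factor gene, by at least 0.17. TGFBI, the gene of a matrix protein induced by TGF-beta, was higher in Hke3 by 2.44 and the receptor kinase gene AXL by 1.54. In Hkh-2, by contrast, the matrix gene FN1 was higher (-1.60, with 5 of 5 probe sets in this direction) and COL3A1 was higher by at least 0.73. Vimentin's gene VIM did not pass, with arrays that overlapped. The ETS factor list held 16 genes, 3 (18.8%) higher in Hke3 and 5 (31.2%) higher in Hkh-2. ETS1 lay at 9.98, 10.47 and 10.33 in Hke3 and at 7.77, 7.66 and 7.99 in Hkh-2, and at 4.0 in HCT116, while ELF5 was higher in Hkh-2 by at least 1.48 and EHF did not pass.

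Of 37 genes of the TGF-beta and BMP pathway, 12 (32.4%) were higher in Hke3 and 10 (27.0%) in Hkh-2, beside 16.6% and 24.0% of all genes. The median was -0.04, and genes of both branches were found on each side. TGFB2, the gene of a TGF-beta ligand, had values of 9.86, 9.99 and 9.72 in Hke3 and of 7.38, 7.42 and 7.33 in Hkh-2, and the receptor gene TGFBR2 was higher in Hke3 by 1.38. SMAD7 and SMURF2, which encode inhibitors of the pathway, were higher in Hke3 by 0.82 and 0.78. Towards Hkh-2, the inhibitor gene SMAD6 differed by -1.72, the ligand gene BMP4 by -1.34, the target gene ID2 by -1.18 and SMAD1, which encodes a signal transducer, by -1.12. The Hkh-2 arrays of these 4 genes lay above all Hke3 arrays. Named after their values were seen, the TGF-beta ligand gene TGFB1 differed by -0.94 and the co-receptor gene TGFBR3 by -1.08, both higher in Hkh-2, whereas the BMP ligand gene BMP7 and the BMP receptor gene ACVR1 were higher in Hke3 by 0.24 and 0.38. TGFB1 lost its call without Hke3 replicate 1 or 2 (adjusted p = 0.0632 and 0.066 from limma). BMP7 lost it without any 1 of Hke3 replicates 1 and 2 and Hkh-2 replicates 1 and 3 (adjusted p = 0.0521 to 0.0944 from limma). Of 21 integrin and laminin genes, 8 (38.1%) were higher in Hke3 and 3 (14.3%) in Hkh-2, the latter 5 without Hke3 replicate 3. ITGA6, which encodes the alpha chain of a laminin receptor, had 9.61, 9.82 and 9.71 in Hke3 and 6.80, 6.59 and 6.52 in Hkh-2, and the laminin genes LAMB3, LAMB2 and LAMC1 were higher in Hke3 by 1.38, 0.81 and 0.78. ITGB8, LAMB1 and ITGB4 went the other way, with differences of -1.84, -1.09 and -0.79, the last lost without Hke3 replicate 1 or 2 (adjusted p = 0.0508 and 0.0515 from limma).

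Detoxification genes, many of them targets of the stress factor NRF2, were mostly higher in Hke3. Of 30 members, 17 (56.7%) were higher in Hke3 and 3 (10.0%) in Hkh-2, beside 16.6% and 24.0% of all genes. The median was 0.30, and 5 were higher in Hkh-2 without Hke3 replicate 3 or Hkh-2 replicate 1. CYP24A1, described above, is in this list although it answers to vitamin D. AKR1C3, of the aldo-keto reductase family, had values of 9.21, 9.36 and 8.20 in Hke3 and of 6.21, 6.39 and 6.16 in Hkh-2, a difference of 2.67, and its near-identical relatives may share its probes. The efflux pump gene ABCC3 was higher by 1.12 and ABCC2 by at least 1.09, but ABCC3 differed by 0.02 without probe sets that can bind several transcripts. HMOX1, the gene of heme oxygenase, did not pass. The pentose phosphate genes PGD and TALDO1 and the transferase gene GSTO1 differed by -0.42, -0.38 and -0.31. Of 21 p53 target genes, 10 (47.6%) were higher in Hkh-2 and 1 in Hke3, beside 24.0% and 16.6% of all genes. Their median was -0.30. SESN1 differed by -0.73, AEN by -0.72, PHLDA3 by -0.64 and TP53I3 by -0.57, while MDM2, the gene of the ligase that degrades p53, did not pass. The 1 member higher in Hke3, the cell cycle inhibitor gene CDKN1A (0.42), lost its call without each of 5 of the 6 arrays of the lines, all but Hkh-2 replicate 1 (adjusted p = 0.0585 to 0.158 from limma).

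**Figure D4:**
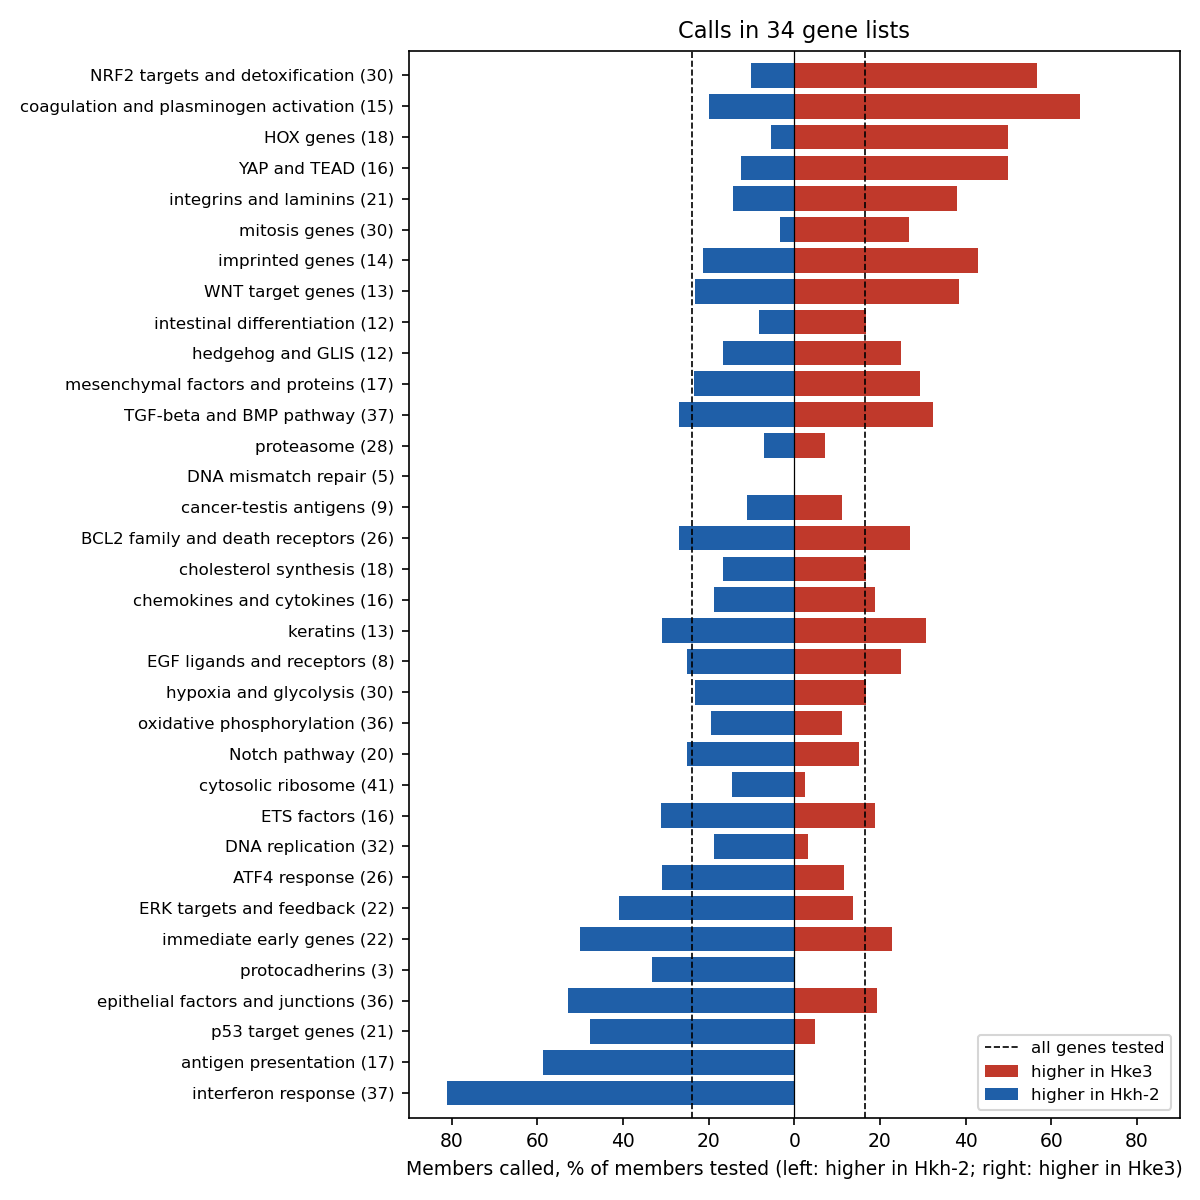
Share of the measured members of 34 gene lists (number in brackets) that passed an adjusted p of 0.05, as a percentage to the right when higher in Hke3 (red) and to the left when higher in Hkh-2 (blue). The dashed lines mark the shares over all genes tested, 16.6% and 24.0%. The interferon response reaches 81.1% to the left and coagulation and plasminogen activation 66.7% to the right.

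HOX genes, which encode factors of position along the body axis, differed as a block on chromosome 17. Of 18 members, 9 were higher in Hke3 and 1 in Hkh-2, beside 16.6% and 24.0% of all genes. Their median was 0.39, against -0.06 over all genes. Of the B cluster, HOXB3 to HOXB9 were all higher in Hke3, by 0.70 for HOXB7 to 1.80 for HOXB8, while HOXB1 and HOXB2 did not pass and lay near 6 in both lines. HOXB8 had values of 8.51, 8.81 and 8.28 in Hke3 and of 6.58, 6.65 and 6.97 in Hkh-2, and HOXB6 had 8.94, 8.95 and 8.87 and 7.53, 7.32 and 7.32. HOXB3 lay at 9.90, 9.78 and 8.93 in Hke3, with replicate 3 the lowest, and at 7.99 to 8.03 in Hkh-2. HOXB13, at the far end of the cluster, was the 1 member higher in Hkh-2 (-0.36). Of the C cluster, HOXC5 and HOXC6 were higher in Hke3 by 0.62 and 0.41.

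Further differences lay side by side along the chromosomes, which the rule did not use. Of 12253 runs of 15 neighbouring genes in RefSeq order, the median difference of the middle 98% lay between -0.38 and 0.34. The runs named here were picked for the largest medians. Overlapping runs share genes, so they are described without a test. On chromosome 11, the run from SESN3 to CASP4 had a median of 0.89, with 12 of 15 genes higher in Hke3 and 1 higher in Hkh-2. It holds the matrix metalloprotease genes MMP7 and MMP20, at 7.60 and 6.54 in Hke3 and at 4.89 and 3.68, near background, in Hkh-2. SESN3, MAML2 and ARHGAP42 also lay near background in Hkh-2, at 5.18, 5.03 and 4.97. These genes were thus tested only through Hke3, and their differences count in the median of the run. The run also holds the apoptosis inhibitor gene BIRC2 (0.89) and the inflammatory caspase gene CASP4 (1.11), but YAP1 within it did not pass. On chromosome 17, the run from COPZ2 to HOXB9 had a median of 0.70, with 8 genes higher in Hke3, 7 of them HOX genes. On chromosome 19, the run from CIC to ETHE1 had a median of -0.79, with 10 genes higher in Hkh-2 and 0 in Hke3. It holds PSG1, PSG4, PSG6, PSG7 and PSG9, pregnancy-specific glycoprotein genes whose near-identical sequences can share probes, with differences of -2.34 to -0.81, all higher in Hkh-2. Their neighbours LYPD3, PHLDB3 and ETHE1 differed by -0.81, -1.05 and -0.79. The HCT116 means of the 5 PSG genes, at 5.29 to 6.34, lay below both lines. A run on chromosome 18 from C18orf54 to SEC11C had a median of 0.50 and holds ALPK2 and MALT1, at 9.81 and 12.14 in Hke3 and at 5.64 and 9.63 in Hkh-2. Runs higher in Hkh-2 also lay on chromosome 12 from PUS1 to ZNF84 (-0.60) and on chromosome 16 from HMOX2 to ALG1 (-0.55). Over whole chromosomes, the median difference was lowest on chromosome 19 (-0.157, with 31.2% of genes higher in Hkh-2 and 6.58% in Hke3) and highest on chromosome 18 (0.044, with 12.4% and 25.4%). Chromosomes 22 (-0.140) and 16 (-0.123) lay close to chromosome 19. DNA copy number was not measured.

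**Figure D5:**
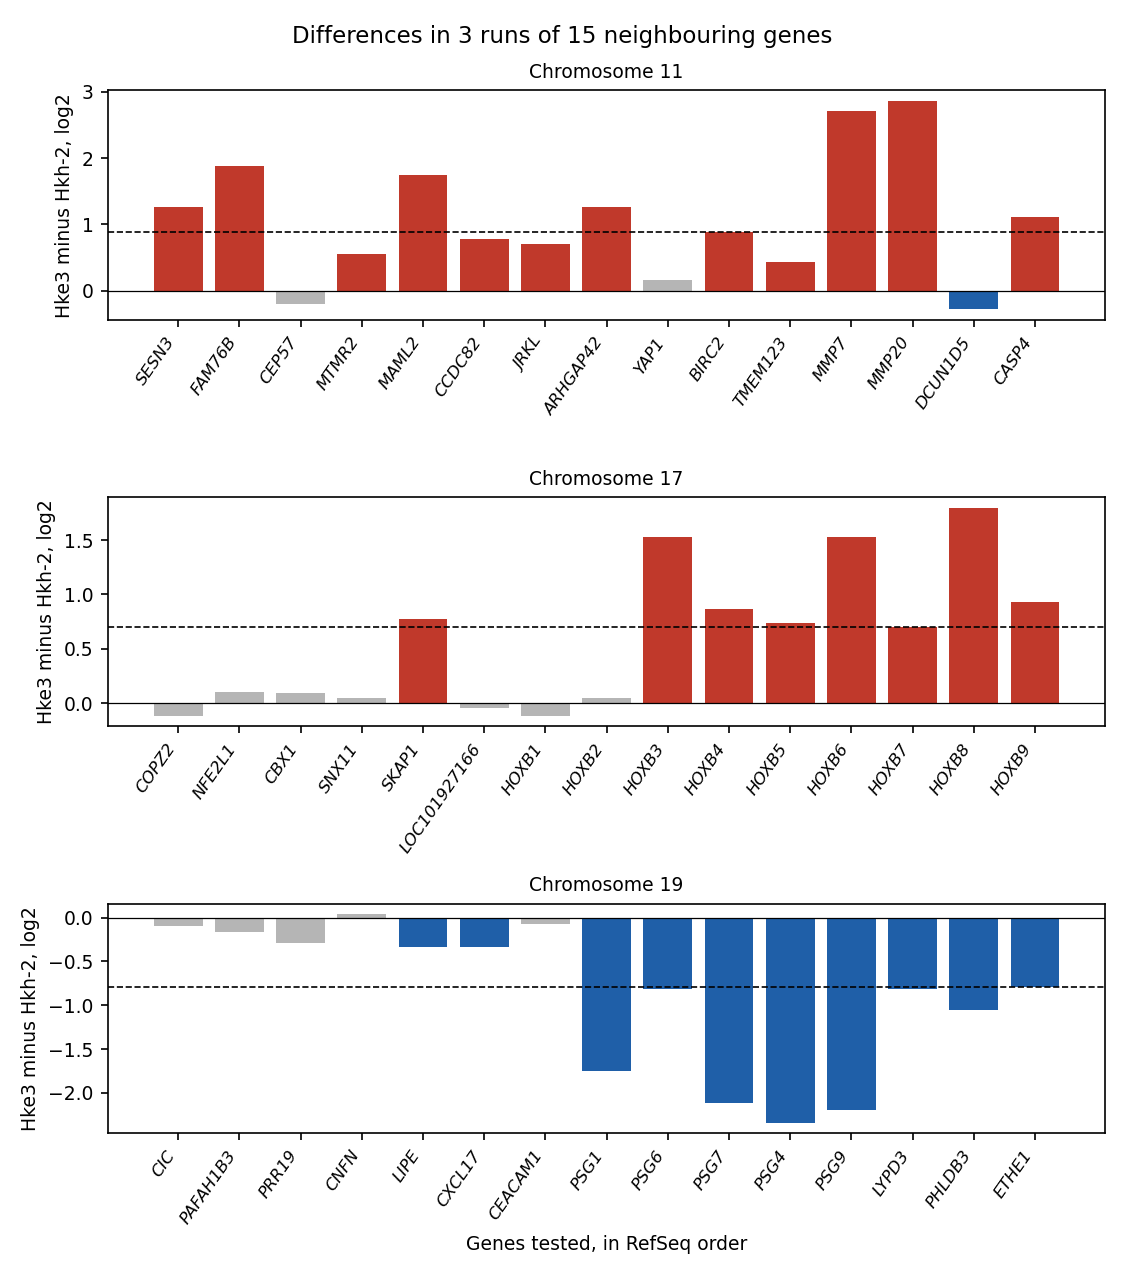
Log2 difference, Hke3 minus Hkh-2 (vertical axis), of 15 neighbouring genes tested on each of chromosomes 11, 17 and 19, in RefSeq order (horizontal axis). Red and blue bars passed an adjusted p of 0.05, grey bars did not, and the dashed line is the median of the run, 0.89, 0.70 and -0.79.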

How the data were processed

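RNA of Hke3, Hkh-2 and HCT116 control cells was measured on 3 arrays per group. The log2 values were deposited by the authors after RMA. Which arrays were normalized jointly is not given in the sources used here. Groups and replicate numbers came from the labels. Of 54675 probe sets, 41097 name 1 gene, 1801 name several and 11777 are unnamed here, and 41043 were matched by gene ID to RefSeq (GRCh38.p14). Probe sets with several symbols named no gene, and where a gene had several probe sets the one of highest mean over 12 arrays stood for it. The test was limma's (3.58.1, under R 4.3.3) with a mean for each of 4 groups, a contrast of Hke3 minus Hkh-2 and Benjamini-Hochberg adjustment over 12598 genes. The fit was first tested on simulated data. Precision is limited by the number of arrays.

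Named genes were the 15 largest differences in each direction among genes that passed without overlap, with means under 6 counted as 6, and up to 4 members per direction of each of 34 gene lists. The comparison, the lists and the rule were chosen with earlier results of these data known, so lists are described by counts and medians without a test. Alternatives were other summaries of probe sets, filters, normalizations, fits and size thresholds, a replicate block and leaving out arrays. The recombined gene itself is not reported here.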

Additional observations from a re-analysis of the deposited data

How the results depend on the processing

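The counts of genes that passed kept within 1.5 times their values under every alternative run, and past 1.5 all but 5 counts did. With the mean of the probe sets of each gene, 148 genes passed 1.5, 84 of them higher in Hke3, over 11113 genes tested. With a threshold of 1 in place of 1.5, by construction more genes passed: 540, of which 313 were higher in Hke3 and 227 in Hkh-2. Leaving out each array gave 3875 to 6410 genes that passed and 224 to 254 past 1.5. Without Hke3 replicate 3 and HCT116 vehicle replicate 2, 7326 genes passed, 2938 higher in Hke3 and 4388 in Hkh-2. With cyclic loess, 2492 were higher in Hke3 and 2534 in Hkh-2. Same-numbered arrays of the lines deviated with r of 0.107, -0.23 and -0.316. These values cannot settle whether the numbers pair the arrays, because deviations from a mean of 3 arrays depend on each other. With the replicate block 4859 genes passed, 4787 of them among the 5122. Of the named genes, SERPINE2 turned with the mean of probe sets (0.01) and ELK4 without probe sets that can bind several transcripts (-0.31), and the cause was not tested. Of the values of named genes under the alternatives, 4759 stayed on their side of the threshold, 123 no longer passed and 2 turned. Leaving out Hke3 replicate 3 moved the lists of mitosis, DNA replication, proteasome and oxidative phosphorylation most. Genes whose mean in a line was near background have a bound in place of a size.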

Other observations

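Beside the counts below stand the shares over all genes, 16.6% higher in Hke3 and 24.0% higher in Hkh-2. Of 26 genes of the BCL2 family and death receptors, 7 were higher in each line. The BH3-only genes PMAIP1 and BCL2L11 were higher in Hke3, PMAIP1 with log2 values of 13.12, 13.15 and 12.75 against 10.47, 10.48 and 10.50, and BCL2L11 by 0.93 with all 6 probe sets in this direction. BOK, BAD, BID and BAK1, which encode other pro-apoptotic members, were higher in Hkh-2, with differences of -0.49 for BAK1 to -1.41 for BOK. Of 14 imprinted genes, 6 were higher in Hke3 and 3 in Hkh-2. SGCE and PEG10, which neighbour each other on chromosome 7, were higher in Hke3 by 2.54 and 1.45, at 5.24 and 5.52 in HCT116. The count towards Hke3 was 3 without Hke3 replicate 1 or Hkh-2 replicate 2. Of 9 cancer-testis antigens, MAGEB1 was at 3.03, 3.11 and 3.46 in Hke3 and at 8.24, 8.18 and 8.44 in Hkh-2, so it was higher in Hkh-2 by at least 2.29, while its neighbour MAGEB2 on the X chromosome was higher in Hke3 by 0.34.

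Of 30 genes of hypoxia and glycolysis, 5 were higher in Hke3 and 7 in Hkh-2, the latter 4 without Hke3 replicate 1, Hkh-2 replicate 2 or Hkh-2 replicate 3. The carbonic anhydrase gene CA12 and the enolase gene ENO2 were higher in Hke3 by 1.85 and 1.24, and the glucose transporter gene SLC2A3 was higher in Hkh-2 by at least 2.13. The 6 probe sets of CA12 ran from -0.08 to 2.82, with 5 towards Hke3. Of 26 genes of the ATF4 response to amino acid shortage, 3 were higher in Hke3 and 8 in Hkh-2, the latter 5 to 8 when 1 array was left out (5 without Hke3 replicate 2 or Hkh-2 replicate 2). Among them the amino acid transporter gene SLC38A2 was higher in Hke3 by 0.95 and NUPR1 and PHGDH differed by -1.03 and -0.91. Of 13 WNT target genes, 5 were higher in Hke3 and 3 in Hkh-2, with AXIN2 and SOX9 higher in Hke3 by 0.95 and 0.90 and ZNRF3 at -1.55, and 3 were higher in Hke3 without Hkh-2 replicate 3. Of 20 genes of the Notch pathway, 3 were higher in Hke3 and 5 in Hkh-2, the latter 2 without Hke3 replicate 1 and 3 without Hke3 replicate 2 or Hkh-2 replicate 2. Of 12 genes of hedgehog and GLIS, 3 and 2 passed (4 in Hkh-2 without Hke3 replicate 3), with GLIS3 at 11.33 in Hke3, 9.10 in Hkh-2 and 4.0 in HCT116. Of 12 genes of intestinal differentiation, 2 and 1 passed, with 0 in Hke3 without Hke3 replicate 1 or Hkh-2 replicate 2, and of 18 of cholesterol synthesis, 3 and 3, with 5 in Hke3 without Hke3 replicate 3.

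Counts in several lists of general cell machinery depended on Hke3 replicate 3, without which 6410 of all 12610 genes tested passed. Of 30 mitosis genes, 8 were higher in Hke3 and 1 in Hkh-2, but 7 in Hkh-2 without Hke3 replicate 3. Of 32 DNA replication genes, 1 was higher in Hke3 and 6 in Hkh-2, and leaving out any 1 of the 6 arrays moved the latter to 1 to 3, except Hke3 replicate 3, without which it was 12. Of 41 cytosolic ribosome genes, 1 and 6 passed (1 to 4 in Hkh-2 without any 1 array other than Hke3 replicate 3), of 28 proteasome genes 2 and 2 (9 and 3 without Hke3 replicate 3) and of 36 oxidative phosphorylation genes 4 and 7 (8 and 8 without it, and 3 to 5 in Hkh-2 without any other array). Of 5 DNA mismatch repair genes 0 passed in limma, also at an unadjusted p of 0.05, and without Hke3 replicate 3 PMS1 was higher in Hke3 (0.37, adjusted p = 0.025 from limma). Of 3 protocadherins measured, PCDH7, which lies outside the protocadherin clusters, was higher in Hkh-2 (-0.37), and PCDH1 and the clustered PCDHB13 did not pass.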
